A study of Homo sapiens with 9 samples.

Results

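Of 60966 genes listed, 32076 had a value above 0 in at least 1 sample. Among them, 9 genes of the NRF2 and glutathione system were followed in H1299 cells after depletion of FIBP. All 9 of 9 passed the filter on low values and were among the 14985 genes tested. They were chosen by name, with earlier results of these data known: NFE2L2, KEAP1, GCLC, GCLM, NQO1, HMOX1, TXNRD1, SRXN1 and GPX4. Their counts and medians beside those of all genes are therefore descriptions. H1299 is an established human cell line from a non-small cell lung carcinoma. It was transfected for 48 h with a scrambled siRNA (Scramble, labelled control, 3 samples) or with 1 of 2 siRNAs against FIBP (Si-FIBP#1 and Si-FIBP#2, both labelled FIBP depleted, 3 samples each). FIBP, the FGF1 intracellular binding protein, was lowered by a transient transfection of a single cell line, and some FIBP mRNA remained. The comparisons ask what depletion of FIBP does to the transcriptome of lung cancer cells. Each siRNA was compared with Scramble, and the siRNAs with each other.

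NFE2L2 encodes NRF2, the transcription factor that drives the antioxidant response. KEAP1 holds NRF2 in a ubiquitin ligase complex and keeps it low, and oxidants or electrophiles that modify KEAP1 let NRF2 reach the nucleus. There NRF2 pairs with small MAF proteins on antioxidant response elements near genes for glutathione synthesis, thioredoxin recycling, quinone reduction and haem breakdown. In non-small cell lung cancer the pathway is often switched on by mutations in KEAP1 or NFE2L2.

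The core letters of the antioxidant response element, TGACNNNGC, were searched on both strands of the RefSeq promoter windows on GRCh38.p14, from 250 bases before to 50 bases after a gene start. The search is shown because NRF2 acts on most of these genes. Windows were found for 8 members, all but HMOX1, 13 in all, and the letters occurred in 4 windows of 3 members, GCLM, TXNRD1 and KEAP1. Bases farther from a start were not searched, so a member without a match may still have the element elsewhere. Over all promoters 4687 of 35116 windows held them, which is 13.3%. Each match is printed in the gene's direction with 10 bases on either side, and capitals mark the match.
GCLM, chr1:93909446-93909474, minus strand: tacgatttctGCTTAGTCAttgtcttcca
TXNRD1 upstream start, chr12:104215670-104215698, plus strand: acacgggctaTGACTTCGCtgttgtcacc
TXNRD1 upstream start, chr12:104215761-104215789, plus strand: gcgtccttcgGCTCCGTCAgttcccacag
TXNRD1 downstream start, chr12:104286920-104286948, plus strand: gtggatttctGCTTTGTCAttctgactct
KEAP1, chr19:10502807-10502835, minus strand: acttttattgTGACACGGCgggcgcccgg
KEAP1, chr19:10502784-10502812, minus strand: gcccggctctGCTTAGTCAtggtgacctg
The GCLM match and the second KEAP1 match spell the same 9 letters, TGACTAAGC, on the strand opposite to the gene. They lie 34 bases and 31 bases upstream of the RefSeq starts. A match is a description of letters, not of a bound site.

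FIBP itself was at 77.7 to 88.4 FPKM (fragments per kilobase of transcript, scaled to the size of the library) in the 3 Scramble samples. It was at 4.30 to 7.77 after Si-FIBP#1 and 5.92 to 8.21 after Si-FIBP#2, so every sample matched its label as control or FIBP depleted. The ranges of the 2 siRNAs overlap, so FIBP does not tell which siRNA a depleted sample received. The depth, estimated from the steps between low values, was 20150000 to 24050000 fragments per library, and 13894 to 14124 genes reached 1 FPKM in Scramble, 14406 to 14587 after Si-FIBP#1 and 14662 to 14715 after Si-FIBP#2. The 10 most abundant genes of a library held 11.4% to 11.6%, 14.9% to 15.1% and 12.9% to 13.4% of its FPKM in these groups, and the part of either difference in the results was not tested. The epithelial keratins KRT8 (67.2 to 108 FPKM) and KRT18 (143 to 483) and the mesenchymal filament VIM were present, whereas KRT19, EPCAM, the lung lineage genes NKX2-1 and SFTPC, the leukocyte gene PTPRC and the endothelial gene PECAM1 stayed at or below 0.29. Nothing in the labels says whether the 3 samples of a group came from separate cultures, so p-values measure only the spread between these samples, which may be technical.

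In Scramble cells the members covered a wide span of levels per length. GPX4 was highest at 346 ± 17.1 FPKM (SD, n = 3), followed by TXNRD1, NQO1, NFE2L2, KEAP1, SRXN1, HMOX1 and GCLC, and GCLM was lowest at 8.2 ± 0.62. Neighbours in this order did not overlap between samples, except HMOX1 (13.6 to 14.8 FPKM) and GCLC (12.8 to 14.7).

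FIBP depletion split the members. TXNRD1, NQO1, SRXN1 and NFE2L2 fell with both siRNAs, GCLC and KEAP1 rose with both, and HMOX1 rose after Si-FIBP#1. With Si-FIBP#1, 3 members rose, 4 fell and 2 did not pass the test (limma on log2(FPKM + 1), Benjamini-Hochberg adjusted p below 0.05 over all genes). The same test called 47.7% of all genes, 27.8% higher and 19.9% lower. With Si-FIBP#2, 2 members rose, 5 fell and 2 did not pass, against 48.8% of all genes, 31.1% higher and 17.7% lower. Both comparisons use the same 3 Scramble samples. The samples of 8 members did not overlap with Scramble after Si-FIBP#1, all but GCLM, where 58.9% of all genes did not, and those of 8 members after Si-FIBP#2, all but HMOX1, where 57.3% did not. The median difference of the 9 members was -0.19 after Si-FIBP#1 and -0.21 after Si-FIBP#2 on the log2 scale, whereas the median of all tested genes was 0.073 and 0.111. When libraries were scaled by the median ratio instead, which moved the median of all genes to -0.014 and -0.017, the members split into 2 higher and 5 lower after Si-FIBP#1 and 1 higher and 5 lower after Si-FIBP#2. KEAP1 then passed with neither siRNA, and GPX4 was called lower with both. All genes split into 21% higher and 25.3% lower, and 20.5% and 26.3%.

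**Figure D1:**
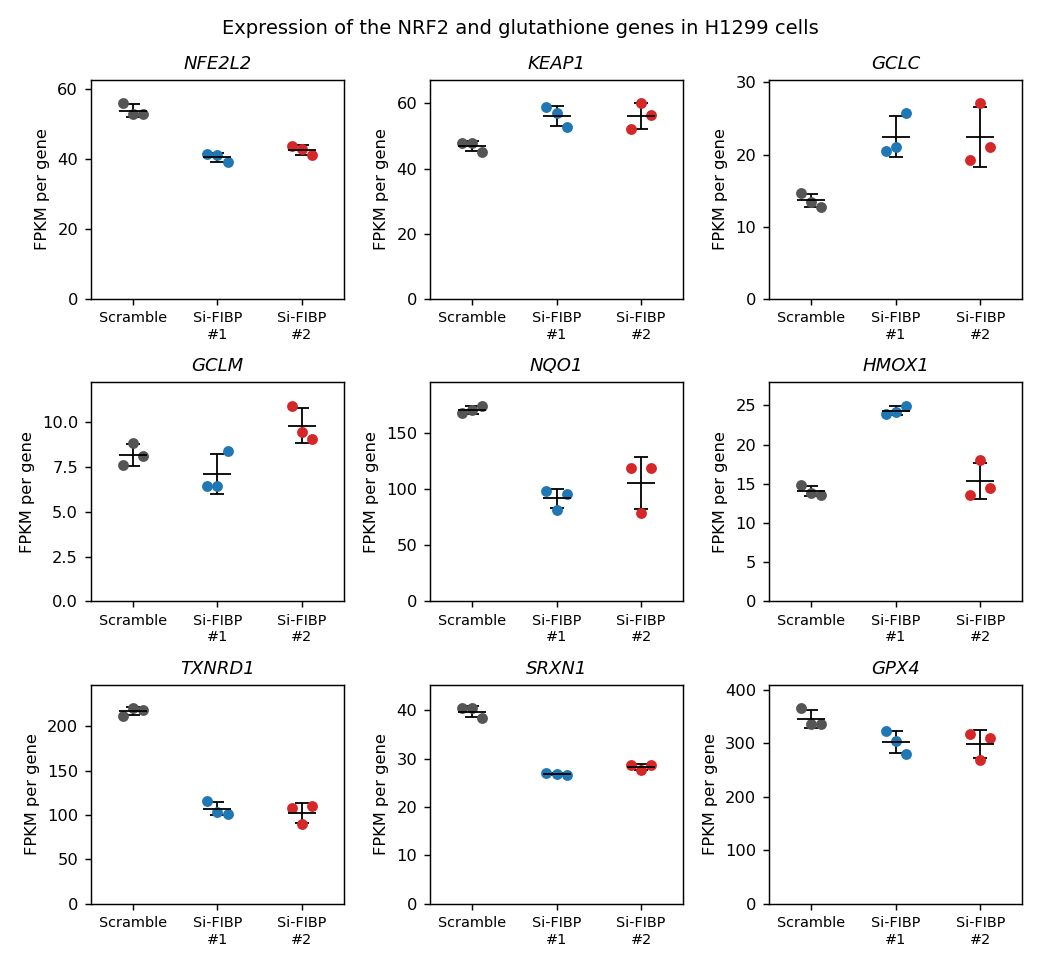
FPKM per gene of the 9 members in each group (points, 3 samples; long bar, mean; whiskers, SD), each panel with its own axis from 0. TXNRD1, NQO1, SRXN1 and NFE2L2 sit below every Scramble sample with both siRNAs, GCLC and KEAP1 sit above, and HMOX1 is higher after Si-FIBP#1, at 23.9 to 25.0.

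**Figure D2:**
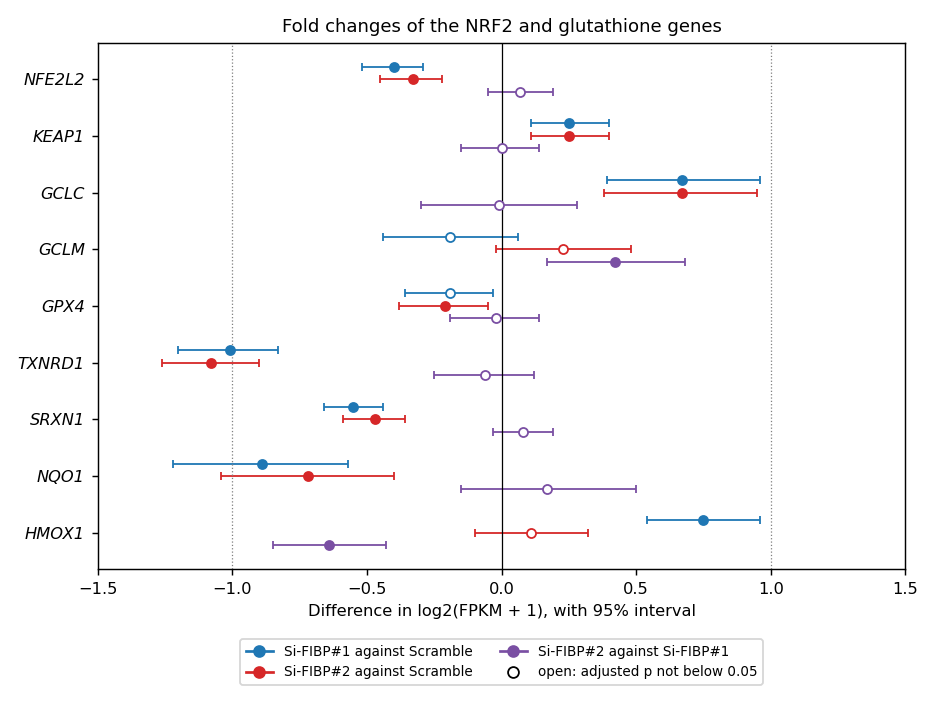
Difference in log2(FPKM + 1) with its 95% interval for each member in the 3 comparisons, filled where the adjusted p was below 0.05, with dotted lines at a 2-fold change. TXNRD1 lies at -1.01 and -1.08, and GCLM and HMOX1 are the members filled in the comparison of the siRNAs.

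Among the regulators, NFE2L2 fell and KEAP1 rose. NFE2L2 (ENSG00000116044, chr2:177227595-177392697, minus strand, GRCh38) was at 55.9, 52.8 and 52.7 FPKM in Scramble, 41.3, 41.1 and 39.0 after Si-FIBP#1, and 43.7, 42.7 and 41.1 after Si-FIBP#2. Every depleted sample was below every Scramble sample, and the 2 siRNAs overlapped. The difference was -0.40 ± 0.05 (SE) after Si-FIBP#1 (limma, adjusted p = 0.00018) and -0.33 ± 0.05 after Si-FIBP#2 (adjusted p = 0.00058). In bulk RNA a lower level in every cell and a loss in some of the cells cannot be told apart. ENST00000397062 made up 83.3% of the NFE2L2 FPKM in Scramble and 81.1% and 80.8% after depletion, and it fell by 0.44 and 0.38 on the log2 scale. AGPS, at 15.1 to 19.5 FPKM, shares 54 bases with NFE2L2 on the opposite strand, and AC019080.1, at 1.83 to 3.05 FPKM, lies across it on the same strand, so some reads of these genes may be mixed.

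KEAP1 (ENSG00000079999, chr19:10486120-10503741, minus strand) was at 48, 47.7 and 45.1 FPKM in Scramble. It reached 58.8, 57.1 and 52.8 after Si-FIBP#1, and 52.2, 60.1 and 56.3 after Si-FIBP#2. All depleted samples were above Scramble, by 0.25 ± 0.07 with each siRNA (limma, adjusted p = 0.0099 and 0.0101). This call was lost under median ratio scaling, where the differences were 0.15 (adjusted p = 0.0621) and 0.11 (adjusted p = 0.185). The ratio of NFE2L2 to KEAP1 FPKM, in which the scaling of a library cancels, was 1.15 ± 0.035 in Scramble, 0.72 ± 0.018 after Si-FIBP#1 and 0.759 ± 0.069 after Si-FIBP#2 (SD, n = 3). None of the depleted samples exceeded 0.84, and none of the Scramble samples was below 1.11. NFE2L2 was lower and KEAP1 higher in every depleted sample, so this separation follows from those values. It is a description and not a further result for KEAP1.

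**Figure D3:**
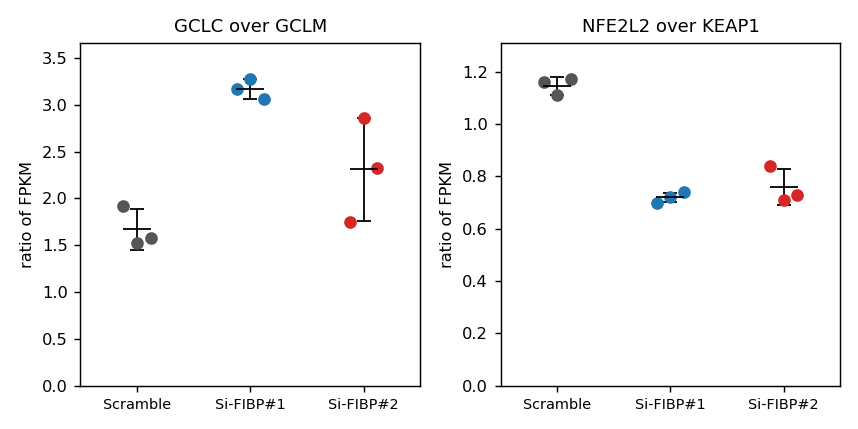
Ratio of FPKM between GCLC and GCLM (left) and between NFE2L2 and KEAP1 (right), 1 point per sample with the group mean (long bar) and SD (whiskers). The NFE2L2 to KEAP1 ratio separates Scramble from both siRNAs, as each of these genes does by itself, and the GCLC to GCLM ratio is above 3 in every Si-FIBP#1 sample.

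Of the 2 main KEAP1 transcripts, 1 rose and the other did not pass the test. ENST00000393623 was at 24.1, 23.7 and 21.5 FPKM in Scramble, 36.2, 36.1 and 32.1 after Si-FIBP#1, and 35.2, 37.6 and 32.4 after Si-FIBP#2. It rose by 0.57 ± 0.08 and 0.58 ± 0.08 in a limma fit over all 47662 transcripts tested, chosen after the data were seen (adjusted p = 0.00185 and 0.00179), where 20.7% and 19.1% of transcripts were called. ENST00000171111 was at 19.8 ± 2.15 FPKM in Scramble, 17.6 ± 1.23 after Si-FIBP#1 and 16.7 ± 1.33 after Si-FIBP#2, and its differences of -0.15 and -0.23 did not pass (adjusted p = 0.315 and 0.153). The share of ENST00000393623 thus went from 47.7% to 50.2% of KEAP1 FPKM in Scramble to 57.5% to 67.5% over the 6 depleted samples, with no overlap. Whether the 2 transcripts changed by different amounts was not tested otherwise. In GENCODE, ENST00000393623 begins 125 bases upstream of the RefSeq start whose window holds the 2 matches printed above. These matches, 54 and 31 bases upstream of that RefSeq start, thus lie downstream of where the transcript begins. ENST00000171111 begins 385 bases upstream of another RefSeq start, outside the window of that start, which holds no match. The bases before its beginning are not in that window, so the windows do not compare the promoters of the 2 transcripts. FPKM divides reads among transcripts that share most of their exons, so the transcript values are estimates.

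Of the enzymes that make glutathione, the catalytic subunit of glutamate-cysteine ligase rose, whereas the modifier subunit did not pass the test. GCLC (ENSG00000001084, chr6:53497341-53616970, minus strand), the catalytic subunit, was at 14.7, 13.5 and 12.8 FPKM in Scramble, 20.5, 21.1 and 25.7 after Si-FIBP#1, and 19.2, 27.1 and 21.0 after Si-FIBP#2. No depleted sample overlapped Scramble, and the FPKM ratio of the means was 1.65 for each siRNA. The difference was 0.67 ± 0.13 with both (limma, adjusted p = 0.00196 and 0.00206).

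GCLM (ENSG00000023909, chr1:93885205-93909456, minus strand), the modifier subunit that raises the efficiency of the enzyme, was at 7.63, 8.86 and 8.11 FPKM in Scramble. With Si-FIBP#1 it was at 6.46, 6.44 and 8.39, overlapping Scramble, and after Si-FIBP#2 at 10.9, 9.49 and 9.05, above every Scramble sample. Neither difference passed the test, at -0.19 ± 0.11 (95% interval -0.44 to 0.06, limma, adjusted p = 0.189) and 0.23 ± 0.11 (-0.02 to 0.48, adjusted p = 0.113). Without Si-FIBP#1 sample 3 the first difference was -0.30 and passed (adjusted p = 0.0415), as it did with transcript FPKM weighted by length (depth-scaled fragments, -0.33, adjusted p = 0.0206), and under median ratio scaling the second was 0.10 (adjusted p = 0.516). The ratio of GCLC to GCLM FPKM was 1.67 ± 0.22 in Scramble, 3.17 ± 0.11 after Si-FIBP#1 and 2.31 ± 0.55 after Si-FIBP#2 (SD, n = 3). All Si-FIBP#1 samples were above all Scramble samples, whereas 1 Si-FIBP#2 sample, at 1.75, lay within the Scramble range of 1.52 to 1.92.

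At the transcript level, ENST00000616923 of GCLC rose from 5.03 ± 1.42 FPKM in Scramble to 9.41 ± 1.6 after Si-FIBP#1 and 10.2 ± 1.62 after Si-FIBP#2 (0.80 ± 0.19 and 0.91 ± 0.19, limma over transcripts, adjusted p = 0.0204 and 0.0129). ENST00000513939 had values of 0.59, 0 and 1.89 FPKM in Scramble, 2.82, 4.45 and 6.5 after Si-FIBP#1, and 3.09, 4.33 and 4.29 after Si-FIBP#2. It was called higher with both (limma over transcripts, adjusted p = 0.0148 and 0.0225). This transcript passed the filter on low values only through its depleted samples, so its call is given as a description. ENST00000650454, by mean the most abundant GCLC transcript in Scramble at 42.2% of its FPKM, differed by 0.19 and 0.10, and neither passed (adjusted p = 0.686 and 0.854). Its Scramble values of 5.73, 7.9 and 3.68 FPKM overlapped those of ENST00000616923, at 4.99, 3.63 and 6.47, and sample 3 had the reverse order. Reads that both share are divided by estimate, so a rise of ENST00000616923 alone is uncertain. GCLM is mostly ENST00000370238, at 6.42 ± 0.81, 5.10 ± 0.91 and 8.04 ± 0.76 FPKM in the 3 groups.

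The largest fall among the members was that of TXNRD1 (ENSG00000198431, chr12:104215779-104350305, plus strand), the cytosolic selenoprotein that uses NADPH to reduce thioredoxin. Its level was 212, 220.4 and 218 FPKM in Scramble, 115, 104 and 102 after Si-FIBP#1, and 107, 89.5 and 111 after Si-FIBP#2. The groups were far apart, and the highest depleted sample was the one at 115. The difference was -1.01 ± 0.08 after Si-FIBP#1 (limma, adjusted p = 1e-05) and -1.08 ± 0.08 after Si-FIBP#2 (adjusted p = 7.9e-06). It was the only member that also passed a 2-fold threshold, as 5.66% of all genes did after Si-FIBP#1 (3.11% lower) and 5.05% after Si-FIBP#2 (2.13% lower). Its estimate lay close to that threshold: after Si-FIBP#1 it dropped under 2-fold without Si-FIBP#1 sample 2 or 3 (-0.99 and -0.98) and with Ensembl transcripts only, and after Si-FIBP#2 without Si-FIBP#2 sample 2 (-0.99). EID3 lies inside TXNRD1 on the same strand at 2.63 to 4.12 FPKM, and AC089983.1 on the opposite strand at 0 to 1.23 FPKM.

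Of 11 TXNRD1 transcripts tested, 7 fell and none rose with each siRNA (limma over transcripts), where 10% and 8.46% of all transcripts were called lower. ENST00000503506 went from 57.3 ± 1.09 FPKM in Scramble to 25.9 ± 1.97 after Si-FIBP#1 and 27.1 ± 3.16 after Si-FIBP#2, and ENST00000526691 from 53.2 ± 0.69 to 22.8 ± 3.33 and 18.9 ± 2.87. Both begin near the downstream RefSeq start, 350 and 151 bases before it. ENST00000525566 begins exactly at the upstream RefSeq start and went from 17.2 ± 1.36 FPKM to 7.11 ± 1.47 and 9.84 ± 1.38, which is -1.18 ± 0.15 and -0.75 ± 0.15 (adjusted p = 0.00103 and 0.00951). The fall was therefore found in transcripts from both starts. Both windows hold the letters printed above, but the downstream match begins only 102 bases before its RefSeq start. It thus lies downstream of where ENST00000503506 and ENST00000526691 begin. A link between the letters and the fall was not tested.

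SRXN1 (ENSG00000271303, chr20:646615-653370, minus strand), sulfiredoxin, which restores over-oxidised peroxiredoxins, fell after both siRNAs. It was at 40.4, 40.5 and 38.4 FPKM in Scramble, 27.0, 26.7 and 26.6 after Si-FIBP#1, and 28.7, 27.6 and 28.7 after Si-FIBP#2. It fell by 0.55 ± 0.05 (limma, adjusted p = 2e-05) and 0.47 ± 0.05 (adjusted p = 5.5e-05). AL121758.1, which shares 6745 annotated bases with SRXN1 on the same strand, was at 0.53 to 2.06 FPKM.

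NQO1 (ENSG00000181019, chr16:69706996-69726951, minus strand), the quinone reductase often read as a marker of NRF2 activity, was at 167, 170.3 and 174 FPKM in Scramble. It was at 98.0, 81.7 and 95.3 after Si-FIBP#1 and at 119, 78.2 and 118 after Si-FIBP#2. Every depleted sample was lower than Scramble, and Si-FIBP#2 sample 2 was the lowest of all. Within Si-FIBP#2 this sample also lay farthest from the Scramble mean for TXNRD1, SRXN1, GPX4, KEAP1, GCLC and HMOX1, but not for NFE2L2 or GCLM. NQO1 fell by 0.89 ± 0.14 after Si-FIBP#1 (limma, adjusted p = 0.00074) and by 0.72 ± 0.14 after Si-FIBP#2 (adjusted p = 0.00258). Without Si-FIBP#2 sample 2 the latter difference was -0.52 (limma, adjusted p = 0.00062). Of 5 transcripts tested, 4 fell after Si-FIBP#1 and 2 after Si-FIBP#2, where 10% and 8.46% of all transcripts were called lower. ENST00000320623 fell from 47.1 ± 1.95 FPKM to 24.3 ± 0.8 and 22.7 ± 5.71, whereas the most abundant one, ENST00000564043, went from 67.9 ± 3.33 to 38.0 ± 7.33 and 47.5 ± 13.9, and only the former of these 2 differences passed (adjusted p = 0.0275 and 0.118).

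HMOX1 (ENSG00000100292, chr22:35380361-35394214, plus strand), haem oxygenase 1, rose after Si-FIBP#1 and differed between the siRNAs. It was at 14.8, 13.8 and 13.6 FPKM in Scramble, 23.9, 24.1 and 25.0 after Si-FIBP#1, and 13.6, 18.0 and 14.4 after Si-FIBP#2. All Si-FIBP#1 samples were above every other sample, while Si-FIBP#2 overlapped Scramble. HMOX1 rose after Si-FIBP#1 by 0.75 ± 0.09 (limma, adjusted p = 0.00018). With Si-FIBP#2 the difference was 0.11 ± 0.09 (95% interval -0.10 to 0.32, adjusted p = 0.36), and it was -0.03 under median ratio scaling and 0 to 2 decimals without Si-FIBP#2 sample 2. ENST00000216117, 89.8% of HMOX1 FPKM in Scramble, was at 12.6 ± 0.94, 21.0 ± 0.3 and 14.4 ± 2.03 FPKM in Scramble, Si-FIBP#1 and Si-FIBP#2.

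GPX4 (ENSG00000167468, chr19:1103926-1106791, plus strand), the selenoprotein that reduces lipid hydroperoxides with glutathione and holds back ferroptosis, was lower in every depleted sample than in any Scramble sample. It was at 365, 336 and 335 FPKM in Scramble, 323, 304 and 281 after Si-FIBP#1, and 317, 269 and 309 after Si-FIBP#2. The differences were -0.19 ± 0.07 after Si-FIBP#1 (limma, adjusted p = 0.0536, not passed) and -0.21 ± 0.07 after Si-FIBP#2 (adjusted p = 0.0356), and both grew under median ratio scaling, to -0.30 (adjusted p = 0.0102) and -0.36 (adjusted p = 0.00338). The latter call was lost without any 1 of the 3 Scramble samples, without Si-FIBP#1 sample 2 or without Si-FIBP#2 sample 2 (differences of -0.24 to -0.14, adjusted p up to 0.114), and also with no filter (adjusted p = 0.0916) or no variance trend (adjusted p = 0.0691). The former passed without Si-FIBP#1 sample 1 or Si-FIBP#2 sample 2 (adjusted p = 0.0367 and 0.0201), and with TPM (-0.24, adjusted p = 0.0183), the filter at 5 FPKM (adjusted p = 0.0448), only the 2 groups in the fit (adjusted p = 0.0311), a replicate block (adjusted p = 0.0292) or depth-scaled fragments (adjusted p = 0.028).

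Of 8 GPX4 transcripts tested, 3 rose and 2 fell after Si-FIBP#1, and 2 rose and 1 fell after Si-FIBP#2 (limma over transcripts). ENST00000611653, 83.5% of GPX4 FPKM in Scramble, was at 289 ± 9.59 FPKM there, 237 ± 14.2 after Si-FIBP#1 and 251 ± 20.8 after Si-FIBP#2, and its difference passed after the former (-0.28 ± 0.07, adjusted p = 0.0207) and not after the latter (-0.20 ± 0.07, adjusted p = 0.0721). ENST00000354171 fell from 29.9 ± 6.29 FPKM to 10.2 ± 1.89 and 11.9 ± 5.21 (-1.46 ± 0.28 and -1.32 ± 0.28, limma over transcripts, adjusted p = 0.00802 and 0.0133). ENST00000589115 rose from 6.44, 6.16 and 4.05 FPKM in Scramble to 31.6, 24.2 and 25.2 after Si-FIBP#1 and 9.31, 10.6 and 9.80 after Si-FIBP#2. These are rises of 2.11 ± 0.16 and 0.75 ± 0.16 (adjusted p = 7.8e-05 and 0.0128), and the siRNAs differed from each other by -1.35 ± 0.16 (adjusted p = 0.00695). ENST00000592940, at 0.5 ± 0.19 FPKM in Scramble, was called higher by 0.71 and 0.75 (adjusted p = 0.0455 and 0.0412). Its Scramble values of 0.43, 0.71 and 0.36 were below the filter, which it passed only through depleted samples. Its call, counted among the GPX4 rises, is thus given as a description. ENST00000593032 rose by 0.90 after Si-FIBP#1 (adjusted p = 0.043) and differed by 0.75 after Si-FIBP#2 (adjusted p = 0.0824). Over all 9 members 41 transcripts were tested, of which 7 rose and 15 fell after Si-FIBP#1, where 10.7% of all transcripts were called higher and 10% lower, and 5 rose and 12 fell after Si-FIBP#2, where 10.6% were called higher and 8.46% lower. The rises with each siRNA include ENST00000513939 of GCLC and ENST00000592940 of GPX4, which passed the filter only through depleted samples. Transcripts of 1 gene also share its reads, so these counts are descriptions and not separate results beside the shares of all transcripts. Between the siRNAs none rose and 1 transcript each of HMOX1 and GPX4 was lower after Si-FIBP#2, where 1.4% of all transcripts were called higher and 1.06% lower.

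The 2 siRNAs were then compared with each other. Of the 9 members, 1 was higher and 1 lower after Si-FIBP#2 than after Si-FIBP#1 (limma, adjusted p below 0.05), where 15.4% of all genes passed, 9.58% higher and 5.8% lower. HMOX1 was lower after Si-FIBP#2 by -0.64 ± 0.09 (95% interval -0.85 to -0.43, adjusted p = 0.0028), and its samples did not overlap. GCLM was higher by 0.42 ± 0.11 (0.17 to 0.68, adjusted p = 0.0328), also without overlap. The GCLM call was lost without Scramble sample 3, Si-FIBP#1 sample 1 or 2 or Si-FIBP#2 sample 1 or 3, at differences of 0.35 to 0.48 (adjusted p = 0.0501 to 0.111), and under median ratio scaling (0.38, adjusted p = 0.055). It was also lost with no filter, only the 2 groups in the fit or a replicate block, each at 0.42 (adjusted p = 0.0836, 0.0643 and 0.0591). For the other 7 members the difference did not pass. Its 95% interval was -0.05 to 0.19 for NFE2L2, -0.15 to 0.14 for KEAP1, -0.25 to 0.12 for TXNRD1, -0.19 to 0.14 for GPX4, -0.30 to 0.28 for GCLC and -0.15 to 0.50 for NQO1. Without Si-FIBP#2 sample 2, NQO1 was higher after Si-FIBP#2 than after Si-FIBP#1 by 0.37 (adjusted p = 0.00947). SRXN1 was higher in each Si-FIBP#2 sample than in any Si-FIBP#1 sample, by 0.08 ± 0.05 (-0.03 to 0.19, adjusted p = 0.338), and 20.4% of all genes showed such a separation in this direction (32.9% in either). With TPM, 12.8% of all genes were higher and 4.32% lower, and with median ratio scaling 6.84% and 8.03%.

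A set of 8 lists of related genes, 130 genes in all with 106 tested, places the members among their pathway. The list counts are read beside all genes tested, of which 27.8% rose and 19.9% fell after Si-FIBP#1, and 31.1% rose and 17.7% fell after Si-FIBP#2. Under median ratio scaling these shares were 21% and 25.3%, then 20.5% and 26.3%. Of the partners and regulators of NRF2, 5 of 11 rose and 3 fell after Si-FIBP#1 and 5 rose and 4 fell after Si-FIBP#2 (3 against 4 for both siRNAs under median ratio scaling). MAFF, a small MAF partner of NRF2, fell from 7.19 ± 0.38 FPKM in Scramble to 2.91 ± 0.38 and 4.54 ± 0.46 (-1.07 and -0.57). BTRC, the substrate receptor of a KEAP1-independent ligase for NRF2, rose from 6.46 ± 0.35 to 9.79 ± 0.52 and 10.4 ± 0.19 (0.53 and 0.61). The list medians were 0.02 and -0.05.

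For glutathione supply, recycling and use, 10 of 30 tested genes rose and 7 fell after Si-FIBP#1, and 13 rose and 7 fell after Si-FIBP#2 (9 against 8 and 9 against 10 under median ratio scaling). Of all genes, 27.8% rose and 19.9% fell with the first siRNA and 31.1% and 17.7% with the second. The glutathione transferases GSTM3, GSTM4 and GSTZ1 led the rises. GSTM3 went from 8.38 ± 1.27 FPKM to 18.5 ± 1.61 and 15.0 ± 0.62, and GSTZ1, which also acts in tyrosine breakdown, from 20.7 ± 2.3 to 32.1 ± 3.53 and 52.8 ± 4.39. GSTM4 went from 1.52 ± 0.57 to 3.56 ± 0.47 and 5.24 ± 0.66, and the GSTM genes are close paralogs, so reads may be divided among them. With Scramble values of 0.99, 2.12 and 1.46, GSTM4 passed the filter on low values only through its depleted samples. Its rise, counted in the list, is thus given as a description. CBS, which feeds homocysteine towards cysteine, fell from 29.7 ± 0.68 to 18.6 ± 1.05 and 20.4 ± 2.32 (-0.65 and -0.53). The medians of 0.13 and 0.21 stood beside 0.07 and 0.11 for all genes.

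In the thioredoxin and peroxiredoxin list, 4 of 9 tested genes rose and 1 fell after Si-FIBP#1, and 4 rose and 2 fell after Si-FIBP#2, beside 27.8% and 19.9%, then 31.1% and 17.7%, of all genes. This split moved to 3 against 5 and 2 against 5 under median ratio scaling, and to 4 against 3 after Si-FIBP#1 under TPM. Mitochondrial thioredoxin TXN2 rose from 50.2 ± 0.98 FPKM to 88.0 ± 2.99 and 84.8 ± 3.25 (0.80 and 0.74, limma, adjusted p = 2.2e-06 and 3.7e-06). Cytosolic thioredoxin TXN, the substrate of TXNRD1, fell from 305 ± 15.7 to 246 ± 13.8 and 261 ± 22.8 (-0.31 and -0.23, adjusted p = 0.00538 and 0.0251). The TXN call after Si-FIBP#2 was lost without Scramble sample 2 or 3 or without Si-FIBP#2 sample 2, with no filter, or with no variance trend (differences over all alternatives -0.38 to -0.15, adjusted p up to 0.0909). The mitochondrial reductase TXNRD2 differed by -0.09 and -0.10 (adjusted p = 0.263 and 0.222).

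Of the NADPH and detoxification genes of the NRF2 program, 7 of 25 rose and 7 fell after Si-FIBP#1, and 11 rose and 6 fell after Si-FIBP#2 (5 against 8 and 5 against 6 under median ratio scaling). The shares of all genes were 27.8% and 19.9%, then 31.1% and 17.7%. AKR1B1, aldose reductase, fell from 78.5 ± 4.44 FPKM to 33.1 ± 5.18 and 24.9 ± 0.89 (-1.23 and -1.62). IDH1, cytosolic isocitrate dehydrogenase, which yields NADPH, rose from 52.1 ± 2.46 to 108 ± 7.01 and 83.7 ± 6.45 (1.04 and 0.67), and the epoxide hydrolase EPHX1 rose from 11.8 ± 1.94 to 24.3 ± 1.83 and 22.4 ± 3.6 (0.99 and 0.87). Of 3 superoxide dismutases and catalase tested, 1 rose and 2 fell after Si-FIBP#1, and 1 fell after Si-FIBP#2 (0 against 2 and 0 against 1 under median ratio scaling), a list too short to set against those shares. SOD2, the mitochondrial dismutase, fell with both, from 50.2 ± 2.73 to 39.97 ± 0.19 and 39.0 ± 4.73 FPKM, a call that was lost after Si-FIBP#2 when Ensembl transcripts alone were counted (adjusted p = 0.111). The SOD2 differences of -0.32 and -0.36 ranged over the alternatives from -0.58 to -0.17 and from -0.51 to -0.24.

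TXNRD1 and GPX4 are selenoproteins, so the other selenoproteins were read beside them. Of 17 tested, 6 rose and 1 fell after Si-FIBP#1, and 10 rose and 0 fell after Si-FIBP#2 (at adjusted p below 0.05 in limma), but under median ratio scaling the split was 4 against 2 and 3 against 5. All genes stood at 27.8% higher and 19.9% lower, then 31.1% and 17.7%, and under median ratio scaling at 21% and 25.3%, then 20.5% and 26.3%. SELENOM rose from 33.3 ± 2.27 FPKM to 72.5 ± 5.4 and 59.8 ± 9.7 (1.10 and 0.81, adjusted p = 4e-05 and 0.00025). SEPHS2, a selenoprotein that makes selenophosphate, differed by 0.20 and 0.24 and lost its call with both siRNAs under median ratio scaling, and after Si-FIBP#1 also without Scramble sample 2 (adjusted p up to 0.198). Of 5 genes of the selenocysteine machinery, 3 rose and 1 fell after Si-FIBP#1, and 4 rose and 1 fell after Si-FIBP#2 (2 against 1 and 4 against 1 under median ratio scaling), beside the same shares of all genes. SEPSECS, the last enzyme in making selenocysteine on its tRNA, rose from 5.83 ± 0.17 to 8.54 ± 0.28 and 9.99 ± 1.08 FPKM. SEPHS1, a paralog of SEPHS2 without selenocysteine, fell from 54.8 ± 4.19 to 35.3 ± 1.51 and 34.9 ± 3.22.

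Of 12 other ferroptosis genes, 4 rose and 6 fell after Si-FIBP#1, and 4 rose and 2 fell after Si-FIBP#2 (2 against 6 and 1 against 5 under median ratio scaling), where 27.8% and 19.9%, then 31.1% and 17.7%, of all genes rose and fell. SLC3A2, the partner of the cystine importer SLC7A11, was at 82.7 ± 1.5 FPKM in Scramble, 50.6 ± 1.98 after Si-FIBP#1 and 70.2 ± 8.06 after Si-FIBP#2. Its fall of 0.70 after Si-FIBP#1 held under every alternative (adjusted p up to 0.0005), whereas the difference of -0.24 after Si-FIBP#2 (adjusted p = 0.0244) lost its call with no filter and without Scramble sample 1 or 2 or Si-FIBP#2 sample 1 or 3 (differences over all alternatives -0.39 to -0.18, adjusted p up to 0.0899). NCOA4, the receptor for ferritin autophagy, rose from 43.4 ± 1.81 to 66.5 ± 1.3 and 50.7 ± 1.18 (0.60 and 0.22), and the latter call was lost under median ratio scaling (0.07, adjusted p = 0.262). With Ensembl transcripts only, the NCOA4 differences were 1.10 and 0.67.

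Genes with the promoter letters rose and fell about as often as genes with a window in general. Among 1981 tested genes with TGACNNNGC in a window, 29% rose and 22.7% fell after Si-FIBP#1, beside 29% and 22.3% of the 10208 tested genes that have a window. With Si-FIBP#2 the shares were 32.7% and 20.1%, beside 32.7% and 19.9%. Among the 3 members with a match, TXNRD1 fell, KEAP1 rose and GCLM passed neither test. The windows leave out more distant sites, so these shares do not compare targets of NRF2 with other genes.

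TXNRD1 had the widest range of group means, 1.08 on the log2 scale. The 3 tested genes with the highest Pearson correlation to it over the 9 samples were DCAF13 (0.996), NOP56 (0.996) and DAZAP1 (0.995). DCAF13 and NOP56 take part in ribosome assembly, and DAZAP1 binds RNA. Their mean levels in Scramble, Si-FIBP#1 and Si-FIBP#2 were 73.5, 44.0 and 43.8 FPKM for DCAF13, 224, 142 and 142 for NOP56, and 100.2, 60.6 and 59.2 for DAZAP1. The 9 points share 3 groups, so this likeness describes the step between Scramble and the depleted cells.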

How the data were processed

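RNA-seq of 9 H1299 samples was used. Per the labels, poly(A) RNA was made into TruSeq libraries and sequenced from both ends, and the submitters' processing notes name HISAT2 and StringTie, without versions. The genome build, annotation, parameters and use of strand are not given in the sources used here. Each table deposited by the authors holds FPKM of Ensembl and assembled transcripts for 1 sample. The unit was inferred from the values, which behave as FPKM on an effective length. FPKM come without the read counts needed to model the counting error, so precision was taken from the spread between samples.

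Transcript FPKM were summed per gene. Genes that reached 1 FPKM in 3 or more samples were tested on log2(FPKM + 1), which understates changes of low genes, with limma 3.58.1 (mean-variance trend) in R 4.3.3, in 1 fit of all 9 samples with Benjamini-Hochberg adjustment over 14985 genes. Levels are mean ± SD, and differences are ± SE. Tables and figures used Python 3.11.15, numpy 2.4.6, pandas 2.3.3 and matplotlib 3.10.9. The fit was tested on simulated data. A further marker of the cell line is not reported here. Genes named are the 9 members, FIBP, from each list those past 2-fold in either comparison and the highest and lowest of those called in both, and the 3 most like TXNRD1. Other selenoproteins, TXNRD2 and ENST00000525566, ENST00000513939, ENST00000354171, ENST00000589115, ENST00000592940 and ENST00000593032 were named after their values were seen. Members and lists were chosen with earlier results of these data known. Positions come from GENCODE 29 (GRCh38) and promoters from RefSeq (GRCh38.p14).

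Alternatives were a pseudocount of 0.1, no filter or 5 FPKM, TPM, median ratio scaling, Ensembl transcripts only, only the groups compared, no variance trend, a replicate block, and each sample left out in turn. Depth-scaled fragments (FPKM weighted by transcript length less 300 nt) and the transcript fit were added after the data were seen.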

Additional observations from a re-analysis of the deposited data

Results flagged for a closer look

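For 2 of the 9 genes the siRNAs differed from each other by the test of that difference itself, which 15.4% of all genes passed. HMOX1 was at -0.64 on the log2 scale in Si-FIBP#2 relative to Si-FIBP#1 samples (adjusted p = 0.0028 in limma), with 23.9 to 25.0 FPKM in the 3 Si-FIBP#1 samples and 13.6 to 18.0 in the 3 Si-FIBP#2 samples, and the difference ranged from -0.75 to -0.56 over the alternatives (adjusted p up to 0.0154). GCLM differed by 0.42 (adjusted p = 0.0328), higher in 3 of 3 Si-FIBP#2 samples, and ranged from 0.35 to 0.57 (adjusted p 0.00426 to 0.111). FIBP, the target of both siRNAs, differed by 0.13 ± 0.18 (SE, adjusted p = 0.686) between them.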

How the results depend on the processing

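Over 19 alternatives, 15 of 27 differences (9 members in 3 comparisons) kept their direction and their side of the threshold under every one. Of 513 values, 468 kept both, 18 lost a call, 11 gained one and 16 changed sign, and the cause was not tested. The sign changes were all in differences of at most 0.11: HMOX1 with Si-FIBP#2 against Scramble under median ratio scaling (-0.03) and without single samples (-0.00 to 0.19), and, between the siRNAs, KEAP1 under TPM (0.04), with Ensembl transcripts only (0.01) and without single samples (-0.05 to 0.05), GCLC under TPM (0.03), under depth-scaled fragments (0.02) and without single samples (-0.15 to 0.09), GPX4 under TPM (0.02) and without single samples (-0.07 to 0.05), and TXNRD1 without single samples (-0.12 to 0.03, positive without Si-FIBP#2 sample 2).

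Members called numbered 7 to 8 for Si-FIBP#1 and 6 to 7 for Si-FIBP#2 when single samples were left out. All genes called then numbered 6050 to 7596 and 6216 to 7206, in place of 7146 and 7309. Under depth-scaled fragments 9 members (3 higher, 6 lower) were called for Si-FIBP#1, as were 8633 of all genes (5147 higher, 3486 lower). Between the siRNAs 1 to 3 members were called, and 1 with no filter, median ratio scaling, only the 2 groups compared or the replicate block. The member past 2-fold, TXNRD1, was lost after Si-FIBP#1 with Ensembl transcripts only (0 remained), and 0 to 1 remained without single samples: 0 after Si-FIBP#1 without its sample 2 or 3, and 0 after Si-FIBP#2 without its sample 2. With a pseudocount of 0.1, 1498 genes (849 higher, 649 lower) passed 2-fold with Si-FIBP#1 in place of 848, 1411 (953 higher, 458 lower) with Si-FIBP#2 in place of 757, and 172 between the siRNAs in place of 84. Between the siRNAs, 1274 to 2822 genes were called when single samples were left out, 3831 under depth-scaled fragments and 2304 as reported, and 75 to 132 passed 2-fold.

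Same-numbered samples of different groups correlated at -0.057 to 0.103 in their deviations, and differently numbered ones at -0.142 to 0.049. These ranges overlap, and with 3 samples per group they cannot decide whether the numbers pair the samples. With the number as a block, GPX4 with Si-FIBP#1 passed (-0.19, adjusted p = 0.0292) and GCLM between the siRNAs did not (0.42, adjusted p = 0.0591). All 9 genes exceeded 6 FPKM in every sample, whereas some of their transcripts were at or near 0, where depth limits what can be read.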
